A study of Homo sapiens with 3 samples.

Results

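The 35 genes described here encode the enzymes of glycolysis, the transporters and regulators that feed it, and further genes that are switched on by low oxygen. They are a list of gene names, and all 35 were found among the 60504 gene identifiers of the table. There were 16 glycolytic enzymes (HK1, HK2, GPI, PFKL, PFKM, PFKP, ALDOA, ALDOC, TPI1, GAPDH, PGK1, PGAM1, ENO1, ENO2, PKM and LDHA), 6 transporters and regulators (SLC2A1, SLC2A3, SLC16A3, PFKFB3, PFKFB4 and PDK1), 12 other hypoxia-inducible genes (CA9, VEGFA, ADM, ANKRD37, BNIP3, BNIP3L, EGLN1, EGLN3, KDM3A, NDRG1, P4HA1 and P4HA2), and HIF1A, a subunit of the transcription factor itself. RNA-Seq was performed on DLD1 cells, an established human colorectal cancer line, to ask how loss of BEX2 alters gene expression. There was 1 library of DLD1 control cells, labelled wild type, and 2 libraries of BEX2-/- cells made from DLD1 by CRISPR/Cas9. The 2 libraries are titled DLD1 KO1 and DLD1 KO2 and are here called clone 1 and clone 2. The study describes a DLD1 line with BEX2 knocked out and clones screened by sequencing. The titles do not say whether the 2 libraries came from separate clones. No treatment is given for any group, and the study's methods name no culture at low oxygen.

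Glycolysis splits glucose to pyruvate in the cytosol, and many tumours run it fast and turn the pyruvate into lactate even when oxygen is present. The hypoxia-inducible factors (HIFs) pair an oxygen-labile alpha subunit, such as HIF1A, with the stable subunit ARNT. With oxygen, prolyl hydroxylases of the EGLN family mark the alpha subunit for destruction through VHL, and without oxygen the factor accumulates and induces most glycolytic genes together with genes for blood vessel growth, acid balance, mitophagy and collagen folding.

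Values are FPKM, fragments scaled to gene length and sequencing depth, so that levels of different genes may be compared. The depths recovered from the steps of low values were between 35593989 and 47722374 reads, with clone 1 the shallowest. BEX2 was listed at 0 in all 3 libraries and gave no check of the labels. All 7 epithelial markers were detected, each above 1 FPKM in every library except VIL1 in clone 2. The 13 markers of fibroblasts, immune, endothelial, erythroid and liver cells were under 1 FPKM in every library. They summed to between 0.921 and 0.962 FPKM, with LUM, PTPRC, CDH5 and HBB at 0 throughout. Most of this sum came from the immune marker CD14, with 71, 51 and 63 reads in the control library, clone 1 and clone 2. In clone 2 the FPKM of CD14 was above that of VIL1. VIL1, a brush border protein of the intestinal epithelium, was at 3.61 FPKM in the control library, 13.2 in clone 1 and 0.221 in clone 2, and the intestinal factor CDX2 at 33.3, 43.2 and 24.0 FPKM. Of the other 5 epithelial markers, EPCAM and CDH1 were also higher in clone 1 than in clone 2, with 282 against 220 and 53.9 against 50.5 FPKM. The keratins went the other way, with KRT8 at 510 against 611 FPKM, KRT18 at 312 against 455 and KRT19 at 442 against 494. The part of these markers in the differences below was not tested. In bulk RNA, fewer cells of a type and less RNA per cell cannot be told apart.

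Most glycolytic enzymes were abundant in all 3 libraries, although ALDOC and ENO2 were low. The 16 enzymes summed to 3561 FPKM in the control library, 3199 in clone 1 and 3218 in clone 2, or 1.3%, 1.2% and 1.2% of all FPKM. A ratio was taken as the log2 of FPKM + 1, which understates the change of low genes, and was called when it reached 2-fold in a gene whose level, averaged between the control library and the clone mean, was 1 FPKM or more. This filter kept 32 of the 35 genes and 11675 genes in all, and CA9, ANKRD37 and BNIP3 were left out by it. Against DLD1 control cells, 1 of 32 genes was called in clone 1, which was SLC2A3, and the background was 2.02% of all genes in either direction and 0.959% for lower values. SLC2A3 passed the filter through its level in the other libraries, and the call was lost at a mean of 5 FPKM or more and when clone 2 was left out, since the gene then failed the filter. In clone 2, 0 of 32 were called against a background of 2.06%, and 0 of 32 were called in the same direction in both clones, against 0.325%. At 1.5-fold the calls were 3 of 32 in clone 1 (background 6.25%), 1 of 32 in clone 2 (8.33%) and 5 of 32 between the clones (12.4%). On the scale of FPKM + 1, none of the 16 enzymes reached 2-fold in any pair of libraries, but ALDOC did so between the clones with a pseudocount of 0.1 FPKM or after scaling to TPM. With 1 control library the fold ratios have no replicate check.

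A test across all genes was also made with limma on the log2 values, in which the lone control library is assumed to vary like the clones. It has 1 residual degree of freedom, all of it from the difference between the clones. At a Benjamini-Hochberg adjusted p under 0.05 limma called 0 of 11675 genes, a background of 0%, and 0 of the 32 genes. At an unadjusted p under 0.05 it called 139 genes (1.19%), of which 0 were among the 32. An exact permutation of 3 libraries cannot go below p = 0.333. A missed threshold in such a design does not show that the values were equal.

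**Figure D1:**
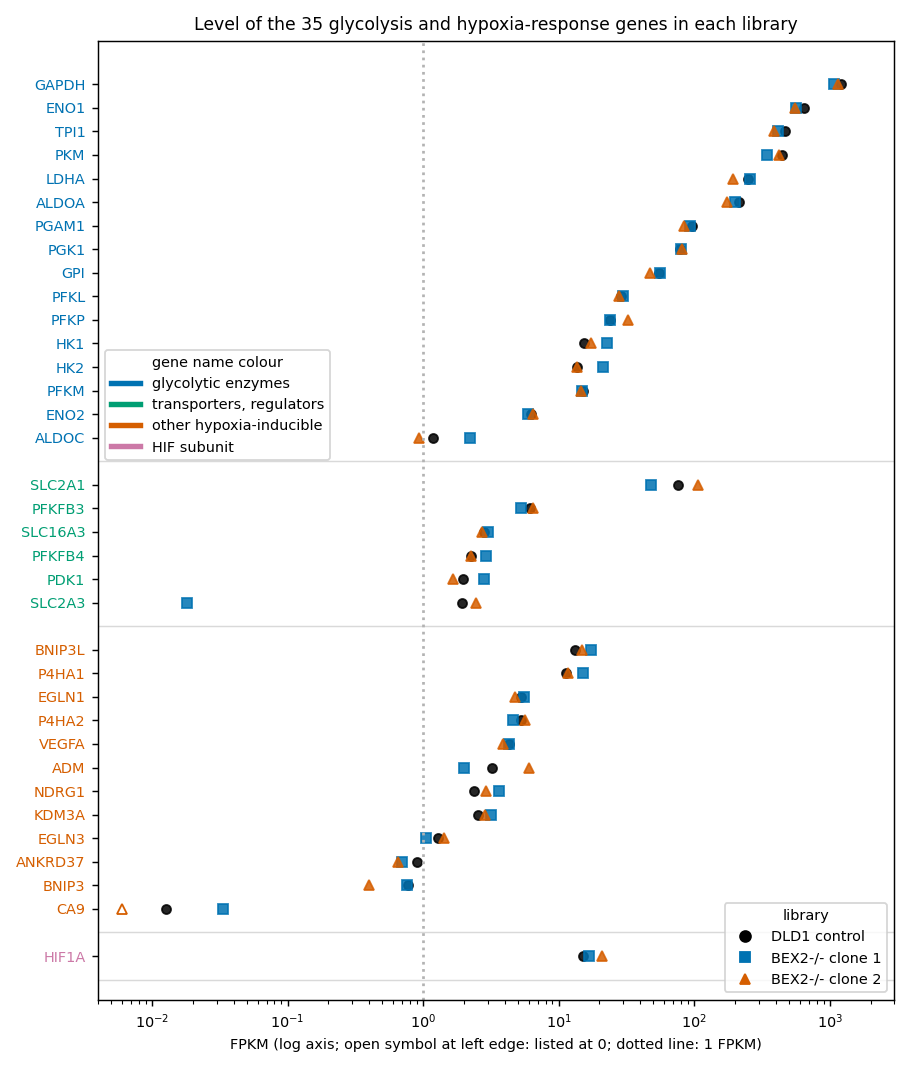
Level of each of the 35 genes in FPKM on a log axis, with 1 point per library (circle, DLD1 control cells; square, clone 1; triangle, clone 2) and gene names coloured by group. Most points of a gene overlap, while SLC2A1, SLC2A3 and ADM are spread, and CA9 lies far under 1 FPKM with clone 2 listed at 0.

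The pathway opens with hexokinase, which traps glucose in the cell as glucose 6-phosphate. HK1, the constitutive form, was at 15.3 FPKM in the control library, 22.8 in clone 1 and 17.5 in clone 2. HK2, the inducible form, was at 13.6, 21.1 and 13.7 FPKM. Both forms were therefore highest in clone 1, and their sum was 28.9 FPKM in control cells, 43.8 in clone 1 and 31.1 in clone 2. For HK2 these values stood for 3915, 4546 and 3956 reads, and the ratio of clone 1 to control was 1.55 (95% exact interval 1.48 to 1.62). Intervals of this kind compare 2 libraries and cover counting error only, not the spread between cultures. The split between the forms was similar in all libraries, with HK1 at between 51.9% and 56.1% of the sum.

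Phosphofructokinase commits the sugar to glycolysis. Its liver form PFKL was at 28.6, 29.8 and 27.7 FPKM in control cells, clone 1 and clone 2, and its muscle form PFKM at 15.2, 14.97 and 14.7 FPKM. The platelet form PFKP was at 23.9 FPKM in control cells, 23.8 in clone 1 and 32.3 in clone 2. PFKP alone of these forms stood out in clone 2, with a ratio to control of 1.35 (interval 1.30 to 1.40), and its share of the family was 43.2% there against 35.4% in control cells. GPI, the isomerase before this step, was at 54.8, 55.9 and 47.6 FPKM.

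The enzymes of the later steps were the most abundant, and 6 enzymes, ALDOA among them, averaged 100 FPKM or more across the 3 libraries. GAPDH, which also served as the internal control of the study's quantitative PCR, was the highest, with 1202 FPKM in control cells, 1069 in clone 1 and 1160 in clone 2. ENO1, the main enolase, was at 651, 565 and 552 FPKM, and the isomerase TPI1 at 467, 417 and 387 FPKM. PKM, the pyruvate kinase that makes pyruvate and ATP, was at 445, 343 and 425 FPKM. These 4 genes were lower in both clones than in control cells as deposited, but GAPDH and PKM turned to slightly above control in clone 2 after scaling to TPM. For PKM the log2 ratio was -0.38 in clone 1 and -0.06 in clone 2.

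ALDOA, which splits fructose 1,6-bisphosphate, was at 213, 201 and 176 FPKM. LDHA, which reduces pyruvate to lactate, was at 249, 256 and 192 FPKM, so clone 2 was the low library, with a ratio to control of 0.770 (interval 0.762 to 0.779). PGAM1 was at 95.5, 93.1 and 84.1 FPKM. PGK1, the first step that yields ATP, was close to level, at 79.1, 79.4 and 81.3 FPKM. The minor forms ALDOC and ENO2, known from brain, were at 1.18, 2.23 and 0.938 FPKM and at 6.23, 5.93 and 6.41 FPKM. ALDOC had 164, 232 and 131 reads and was 2.37-fold higher in clone 1 than in clone 2 (interval 1.91 to 2.96).

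Of the 16 enzymes, 7 were below control in both clones and 3 above control in both, whereas the shares among all genes were 27.7% and 32.4%. The count of 7 rested on the scaling, since it was 9 after division by the median ratio and 3 after scaling to TPM. Processed pseudogenes could take or lend reads to these genes, since the way in which shared reads were counted is not given in the sources used here. The table holds 62 GAPDH pseudogenes, which summed to between 1.30% and 1.35% of GAPDH, and 6 of LDHA, which summed to between 2.03% and 2.53% of LDHA.

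**Figure D2:**
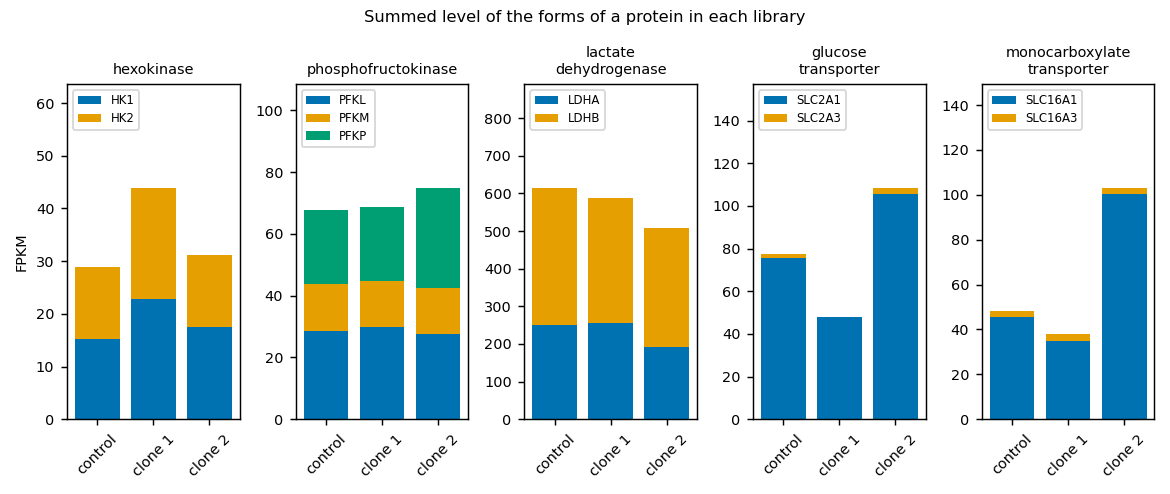
Stacked bars of FPKM from 0 in each library for the forms of hexokinase, phosphofructokinase, lactate dehydrogenase, the glucose transporters SLC2A1 and SLC2A3, and the monocarboxylate transporters SLC16A1 and SLC16A3. The hexokinase sum is highest in clone 1 (43.8 FPKM), and both transporter sums are highest in clone 2 (108 and 103 FPKM).

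Among the transporters, SLC2A1 and SLC2A3 differed between the libraries while SLC16A3 was even. SLC2A1 (GLUT1, ENSG00000117394, minus strand of chromosome 1 of GRCh38, 42925375 to 42959176), the basal glucose carrier of most cancer cells, was at 75.4 FPKM in the control library, 47.8 in clone 1 and 106 in clone 2. Control cells thus lay between the clones. The log2 ratio to control was -0.65 in clone 1 and 0.48 in clone 2, and clone 2 was 2.19-fold above clone 1 in FPKM + 1. The mean of the clones was 76.8 ± 41.0 FPKM (SD, n = 2), so that it differed from the control value by far less than the spread between the clones.

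SLC2A3 (GLUT3, ENSG00000059804, minus strand of chromosome 12, 7919230 to 7936275), a glucose carrier of high affinity best known from neurons, was at 1.95 FPKM in the control library, 0.0182 in clone 1 and 2.45 in clone 2. These values stood for 569, 4 and 720 reads. SLC2A3 mRNA was thus nearly absent from clone 1 and present at similar levels in the other libraries. Control cells were 107-fold above clone 1 (interval 41.4 to 393), and clone 2 was 134-fold above clone 1 (interval 52.2 to 494). On the scale of FPKM + 1 the log2 ratio of clone 1 to control was only -1.53. Its neighbour SLC2A14, a near copy whose reads may be hard to separate, had 0, 0 and 2 reads, so that the reads of clone 1 were not found under that name. In all 3 libraries SLC2A1 was the main carrier, with between 97.5% and 99.96% of the sum of both.

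SLC16A3 (MCT4), which exports lactate and is induced by hypoxia, was low and even, at 2.83, 2.99 and 2.73 FPKM. PFKFB3 and PFKFB4 set the level of fructose 2,6-bisphosphate, the activator of phosphofructokinase. PFKFB3 was at 6.18, 5.24 and 6.43 FPKM, and PFKFB4 at 2.24, 2.93 and 2.26 FPKM. PDK1, which inhibits pyruvate dehydrogenase, was at 1.98, 2.81 and 1.67 FPKM. Like HK2 and ALDOC, PDK1 was highest in clone 1, by 1.41-fold over control (interval 1.31 to 1.52).

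Between the clones, 3 of the 32 genes differed at least 2-fold, or 9.38%, against a background of 4.19% of all genes. They were SLC2A3, ADM and SLC2A1, and all 3 were higher in clone 2, where the background in that direction was 2.51%. The control value lay between those of the clones for 15 of the 32 genes, with clone 2 the higher library for 8 of them and clone 1 for 7. Over all genes these patterns made up 16.1% and 23.9%. Both clones are labelled as BEX2 knockouts, and with 1 library each the difference between them has no replicate check.

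**Figure D3:**
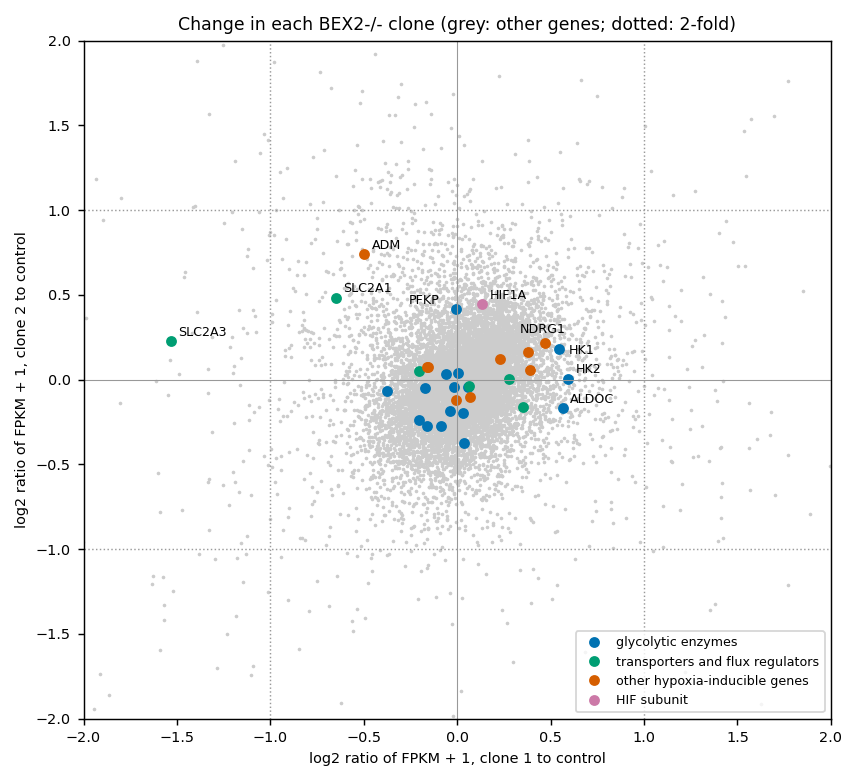
Log2 ratio of FPKM + 1 to DLD1 control cells in clone 1 (horizontal axis) and clone 2 (vertical axis) for 32 of the 35 genes, coloured by group, over all genes past the filter in grey (54 genes lie outside the axes). SLC2A1, SLC2A3 and ADM lie to the upper left, and no coloured point lies beyond 2-fold in both clones.

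Among the other hypoxia-inducible genes, ADM (ENSG00000148926, plus strand of chromosome 11, 10304680 to 10307397) differed most. It encodes adrenomedullin, a secreted peptide that widens blood vessels. ADM was at 3.24 FPKM in the control library, 2.01 in clone 1 and 6.08 in clone 2, or 418, 194 and 788 reads. The order of the libraries was the same as for SLC2A1, with clone 1 lowest and clone 2 highest. Clone 2 was 3.03-fold above clone 1 (interval 2.59 to 3.56) and 1.87-fold above control (1.66 to 2.12). The clones averaged 4.04 ± 2.88 FPKM (SD, n = 2), less than 1 SD from the control value.

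CA9, the cell surface carbonic anhydrase that is among the most strongly HIF-dependent genes known, was hardly detected. Its reads numbered 1 in the control library, 2 in clone 1 and 0 in clone 2, all under the 3 reads that a count of 0 allows, and no difference was detectable at this depth. In DLD1 control cells 3 reads of CA9 would be 0.0379 FPKM. VEGFA, the growth factor of blood vessels, was even, at 4.33, 4.31 and 3.89 FPKM. ANKRD37, a small ankyrin repeat protein, had 110, 64 and 80 reads and stayed under 1 FPKM.

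BNIP3 and BNIP3L mark mitochondria for mitophagy. BNIP3 was at 0.780 FPKM in control cells, 0.760 in clone 1 and 0.397 in clone 2, or 197, 144 and 101 reads. Clone 2 was the low library, with a ratio to control of 0.510 (interval 0.397 to 0.651). BNIP3 also has 39 pseudogenes in the table, which summed to 2.28, 2.55 and 1.71 FPKM and so exceeded the gene itself, and the assignment of reads among them is uncertain. BNIP3L was higher, at 13.1, 17.3 and 14.8 FPKM.

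The oxygen sensors EGLN1 and EGLN3 are themselves HIF targets and restrain the factor in return. EGLN1 was at 5.24, 5.54 and 4.80 FPKM, and EGLN3 at 1.30, 1.06 and 1.42 FPKM. KDM3A, a histone H3 demethylase, was at 2.55, 3.16 and 2.85 FPKM. The stress gene NDRG1 was at 2.36, 3.66 and 2.89 FPKM, above control in both clones and by 1.55-fold in clone 1 (interval 1.43 to 1.68). P4HA1 and P4HA2, the subunits that hydroxylate proline in collagen, differed in order. P4HA1 was at 11.2, 15.1 and 11.7 FPKM and highest in clone 1, whereas P4HA2 was at 5.28, 4.62 and 5.61 FPKM and lowest there.

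HIF1A was at 15.1 FPKM in the control library, 16.7 in clone 1 and 20.9 in clone 2. Clone 2 was highest, with a ratio to control of 1.38 (interval 1.33 to 1.44). The HIF protein is governed mainly through its stability, and no protein value was analysed here.

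The enzymes were then set beside the other hypoxia-inducible genes. In clone 1 the median log2 ratio to control was -0.013 for the 16 enzymes and 0.069 for the 9 hypoxia-inducible genes past the filter, with 0.037 for all genes. In clone 2 it was -0.058 for the enzymes, 0.074 for the hypoxia-inducible genes and -0.013 for all genes. The median of the enzymes minus that of the hypoxia-inducible genes was thus -0.082 in clone 1 and -0.13 in clone 2, and 0.012 for clone 2 against clone 1. The difference in clone 1 was -0.026 without a filter and -0.24 at a mean of 5 FPKM or more. Scaling to TPM moved the medians of the enzymes to 0.047 in clone 1 and 0.013 in clone 2, so their sign depends on the scaling. In clone 1 it also moved the median of all genes, to 0.10. The enzymes minus the hypoxia-inducible genes were then at -0.090 in clone 1. The median size of the ratio regardless of sign was 0.073 for the enzymes and 0.23 for the hypoxia-inducible genes in clone 1, against 0.16 for all genes. In clone 2 the sizes were 0.18, 0.12 and 0.19, so the order of the groups changed between the clones. These medians are descriptions of the lists, since genes are not replicates of a condition.

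RefSeq promoters (GRCh38.p14) were matched for 31 of the 35 genes. None was matched for SLC2A3 and VEGFA, which does not show that these genes lack one. BNIP3L and NDRG1 were left out when the members were selected, so whether they have a matching promoter was not tested. That selection was not applied to the windows of all genes, so the members and the background were not filtered alike. The counts of the members below leave out SLC2A3, VEGFA, BNIP3L and NDRG1. Sequences are printed for PGK1 and LDHA, abundant enzymes, for ADM and SLC2A1, which differed between the clones, and for CA9, which was nearly silent, so that their HIF core motifs can be compared. Each line gives the 250 bases before a transcription start, 5′ to 3′ on the strand of the gene, with the motif letters ACGTG and GCGTG in capitals where they occur on either strand (CACGT and CACGC on the other strand). A CACGTG run holds ACGTG on both strands and counts for each. The windows are chrX:78103998-78104247 (plus strand) for PGK1, chr11:18394313-18394562 (plus) for the first start of LDHA, chr9:35673678-35673927 (plus) for CA9, chr11:10304823-10305072 (plus) for ADM and chr1:42958869-42959118 (minus) for SLC2A1.
PGK1: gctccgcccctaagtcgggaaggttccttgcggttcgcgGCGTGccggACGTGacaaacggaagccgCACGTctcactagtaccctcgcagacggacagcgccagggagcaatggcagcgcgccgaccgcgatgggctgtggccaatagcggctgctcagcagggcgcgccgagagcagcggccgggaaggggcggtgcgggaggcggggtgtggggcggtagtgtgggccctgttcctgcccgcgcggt
LDHA: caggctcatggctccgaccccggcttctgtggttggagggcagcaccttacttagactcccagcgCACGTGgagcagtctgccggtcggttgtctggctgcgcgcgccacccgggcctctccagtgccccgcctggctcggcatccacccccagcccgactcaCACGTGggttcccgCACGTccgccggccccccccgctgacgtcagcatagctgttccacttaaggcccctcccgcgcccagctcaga
CA9: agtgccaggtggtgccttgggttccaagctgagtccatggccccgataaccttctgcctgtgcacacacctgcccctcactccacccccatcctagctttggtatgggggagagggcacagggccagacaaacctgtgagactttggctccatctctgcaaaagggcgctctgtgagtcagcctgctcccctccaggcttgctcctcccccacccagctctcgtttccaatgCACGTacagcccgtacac
ADM: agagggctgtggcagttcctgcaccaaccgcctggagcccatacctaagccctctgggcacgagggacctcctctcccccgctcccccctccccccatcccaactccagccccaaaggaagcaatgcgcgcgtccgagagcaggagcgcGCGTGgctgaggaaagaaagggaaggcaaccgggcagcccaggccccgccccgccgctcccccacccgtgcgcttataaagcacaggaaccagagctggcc
SLC2A1: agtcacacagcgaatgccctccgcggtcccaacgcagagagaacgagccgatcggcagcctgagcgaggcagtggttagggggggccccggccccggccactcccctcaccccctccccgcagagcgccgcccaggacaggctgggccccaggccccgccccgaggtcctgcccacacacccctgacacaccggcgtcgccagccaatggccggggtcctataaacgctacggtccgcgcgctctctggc

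The PGK1 window held ACGTG 2 times and GCGTG 1 time, and that of LDHA held ACGTG 5 times with overlaps counted. CA9 held a single ACGTG close to its start, although its mRNA was nearly absent from all 3 libraries. ADM held only 1 GCGTG and SLC2A1 neither motif, and ACGTG was also missing before members that did not differ 2-fold, such as PKM, ENO1 and PGAM1. Of 59 windows of the 31 genes, 37.3% held ACGTG, against 18.5% of 35116 windows in all, and 32.2% held GCGTG, against 32.2% in all. Some windows of the same gene overlapped almost wholly, as for HK1 and PFKM, so windows are not a count of separate promoters. By gene, 19 of the 31 held ACGTG before at least 1 start, or 61.3%, against 21.7% of 27305 genes, and genes with several starts had more chances. The windows of the enzymes held ACGTG in 14 of 36 and those of the other hypoxia-inducible genes in 5 of 10. A match of 5 letters is a description and not a bound site, and an absent match says only that these letters are not in this window.

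Other genes of the HIF system were examined from a list of 14, of which 13 passed the filter. EPAS1, the alpha subunit of HIF-2, was the only one of the 13 that reached 2-fold against control on the log2(FPKM + 1) scale, in clone 1 (background 2.02%), and it was picked out after its values were seen. It was at 1.90 FPKM in the control library, 6.68 in clone 1 and 4.28 in clone 2, or 659, 1735 and 1493 reads. EPAS1 was above control in both clones, with log2 ratios of 1.40 and 0.86, folds in FPKM of 3.51 (interval 3.21 to 3.85) and 2.25 (2.05 to 2.47). The clones averaged 5.48 ± 1.69 FPKM (SD, n = 2). The partner ARNT was at 3.85, 5.39 and 5.40 FPKM, and VHL at 8.75, 9.16 and 9.78 FPKM. ARNT2 was at 1.90, 1.94 and 3.95 FPKM. Its fold in FPKM over control was 2.08 in clone 2 (interval 1.90 to 2.28), under 2-fold in FPKM + 1. The inhibitor HIF1AN was at 3.998, 4.21 and 5.19 FPKM, and HIF3A was listed at 0 in all libraries.

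A further 32 hypoxia-inducible genes that are not among the 35 were taken from a list, and 22 passed the filter. Of these, 1 reached 2-fold against control in clone 2 (background 2.06%) and 0 in clone 1 (2.02%). It was BHLHE40, a circadian repressor induced by hypoxia, at 2.48 FPKM in control cells, 1.77 in clone 1 and 6.04 in clone 2. Between the clones 2 of 22 were called against a background of 4.19%, BHLHE40 upward in clone 2 and ANGPTL4, a secreted inhibitor of lipoprotein lipase, downward. ANGPTL4 was at 2.57, 2.84 and 0.836 FPKM. The median log2 ratio of the list was 0.14 in clone 1 and -0.049 in clone 2, against 0.037 and -0.013 for all genes.

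Of 19 further glycolysis genes 8 passed the filter, and the other 11, mostly liver, muscle and testis forms, were under 1 FPKM in every library. SLC16A1 (MCT1), which carries lactate and pyruvate across the membrane, was the only one of the 8 called, in clone 2 (background 2.06%) and between the clones (4.19%). SLC16A1 was at 45.5 FPKM in the control library, 34.8 in clone 1 and 100.2 in clone 2, or 11465, 6587 and 25396 reads. The order was again clone 1 lowest and clone 2 highest, and clone 2 was 2.88-fold above clone 1 (interval 2.80 to 2.95). The sum of SLC16A1 and the member SLC16A3 was 48.3, 37.8 and 103 FPKM, of which SLC16A1 made up between 92.1% and 97.3%. LDHB, the form of lactate dehydrogenase that favours pyruvate, was at 364, 333 and 315 FPKM, and LDHA made up 40.7%, 43.5% and 37.9% of the sum of both.

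**Figure D4:**
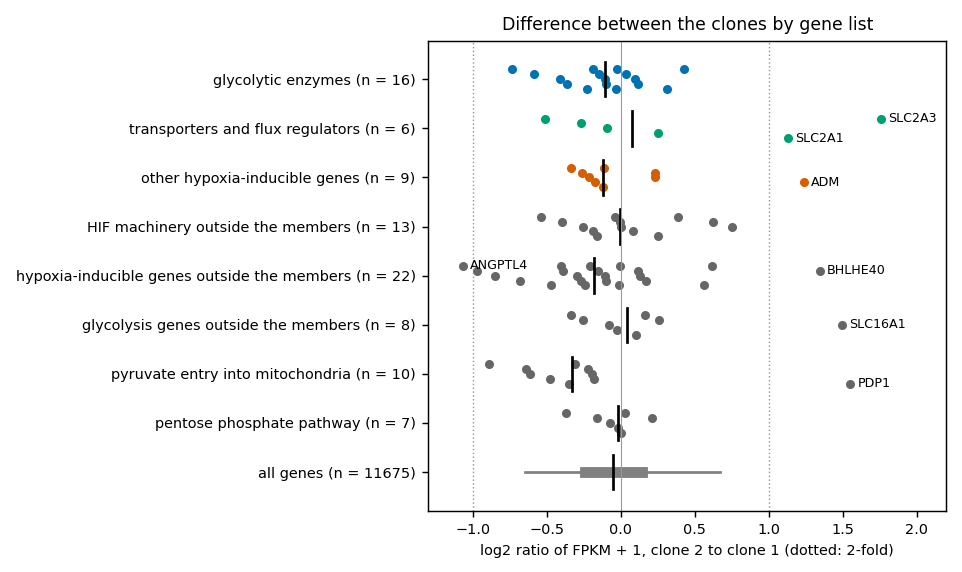
Log2 ratio of FPKM + 1 of clone 2 to clone 1 for each gene past the filter, by list, with the median as a black line and dotted lines at 2-fold; the grey bars show the interquartile range (-0.24 to 0.15) and the range between percentiles 5 and 95 (-0.65 to 0.67) of all 11675 genes. The glycolytic enzymes lie within 2-fold, and SLC2A3, SLC2A1, ADM, BHLHE40, SLC16A1 and PDP1 lie beyond it on the right and ANGPTL4 on the left.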

How the data were processed

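Libraries were made by the authors from TRIzol-extracted RNA with a TruSeq kit, and they deposited 1 table of FPKM values per gene and library. Their processing notes name hg19, Trim Galore 0.3.7, STAR 2.5, Cufflinks 2.2.1 and DESeq 1.22.1 without roles. The study's methods give DESeq as the test for differential expression, and the annotation is not given in the sources used here. The deposited FPKM values were used without further scaling, as log2(FPKM + 1). Symbols came from a table of Ensembl identifiers, and positions and exon lengths from GENCODE release 29 (GRCh38), where 56996 of the 60504 identifiers were found. No coordinate was read from the deposited table. A gene was kept at a mean level of 1 FPKM or more and called at 2-fold. Count models were not run on FPKM. Reads were recovered as FPKM times exon length times the depth at which low values (under 50 reads) came out whole within 0.02. Low values came out whole in 98.7% to 98.8% of cases for single-transcript genes and in 88.1% to 89.0% for the rest, and for 27 of the 35 genes in all libraries. Read ratios carry 95% exact (Clopper-Pearson) intervals, which cover counting error only. The test across genes used limma 3.58.1 in R 4.3.3 with an intensity trend, two-sided. The methods were tested on simulated data, in which limma found the changed genes when the noise was alike across genes and of a small size set by hand. It did not when the noise of each gene came from the single clone difference of a gene of like level. Noise set in that way may be more uneven than in the data. The simulations differed in the size of the noise as well as in its evenness, and these were not told apart. Named from the further lists were genes at least 2-fold from control in both clones or between the clones. Outside this rule, EPAS1, HIF3A, ARNT, ARNT2, VHL, HIF1AN, LDHB, MPC1, MPC2, PDK3, RPIA, TKT and the markers of cell types were named after their values were seen. The 35 genes and all lists were chosen with earlier results of these data known. Alternatives were another pseudocount, no or a stricter filter, scaling by the median ratio or to TPM, a 1.5-fold threshold and omission of each clone. Scripts ran under Python 3.11.15 (scipy 1.17.1, numpy 2.4.6, matplotlib 3.10.9, pandas 2.3.3).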

Additional observations from a re-analysis of the deposited data

How the results depend on the processing

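No paired analysis was possible because a single control library stood against both clones. At 1.5-fold the called members numbered 3 in clone 1 (HK2, SLC2A1 and SLC2A3), 1 in clone 2 (ADM) and 5 between the clones (HK2, ALDOC, SLC2A1, SLC2A3 and ADM), and all genes called 730, 973, 137 in both clones and 1444 between the clones. A mean of at least 5 FPKM kept 22 members and 6297 genes. It left 0 called members in clone 1 and 1 between the clones, SLC2A1, because SLC2A3 and ADM were removed. Of the 6297 genes, 83, 100, 6 and 222 were called. Of 11675 genes, a pseudocount of 0.1 FPKM called 456, 507, 88 and 863, and TPM called 400, 471, 72 and 763. Both of these added ALDOC to the members called between the clones, making 4 of 32. Without clone 2, members called in clone 1 were 0, since SLC2A3 then failed the filter. With a single clone left, the count of genes called in both clones becomes that of the remaining clone, 250 to 255. Without a filter limma called 240 of 60504 genes and 0 of 35 members, and the cause was not tested.

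The median of the enzymes moved to -0.056 in clone 1 and -0.047 between the clones with the median ratio, and to 0.047 in clone 1 and 0.013 in clone 2 with TPM. The median of the other hypoxia-inducible genes in clone 1 was 0.22 with at least 5 FPKM, 0.031 with the median ratio, 0.012 without a filter, 0.081 with the smaller pseudocount and 0.14 with TPM. In clone 2 it was 0.066, 0.085, 0.066, 0.12 and 0.17 in the same order, and between the clones -0.19, -0.070, -0.11, -0.14 and -0.13. The median of the transporters and regulators was -0.42 in clone 1, 0.27 in clone 2 and 0.69 between the clones with at least 5 FPKM, 0.098 in clone 2 with TPM, and 0.061 in clone 1 without clone 2. The median of the enzymes minus that of the hypoxia-inducible genes was -0.24 in clone 1 and 0.092 between the clones with at least 5 FPKM, -0.026 in clone 1 without a filter and -0.18 in clone 2 with the smaller pseudocount. The enzymes below control numbered 3 with TPM, and between 9 and 11 when 1 clone was left out. The cause of these shifts was not tested beyond the genes that a filter removed. In all alternatives that kept both clones, 0 members were called in the same direction in both.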

Other observations

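The entry of pyruvate into mitochondria competes with its reduction to lactate, and 10 of 12 genes of this step passed the filter. PDP1, the phosphatase that switches pyruvate dehydrogenase on, was the only one of the 10 called, in clone 2 (2.06% of all genes) and between the clones (4.19%). PDP1 was at 9.10 FPKM in the control library, 6.58 in clone 1 and 21.2 in clone 2, or 2421, 1312 and 5672 reads. Clone 2 was thus the high library, 3.22-fold above clone 1 (exact interval 3.04 to 3.43). The other 9 genes past the filter were all lower in clone 2 than in clone 1, against 57.8% of all genes. Among them, the mitochondrial pyruvate carrier subunits MPC1 and MPC2 were at 14.7, 19.2 and 9.88 FPKM and at 11.9, 15.1 and 9.32 FPKM. The median log2 ratio of the list was 0.28 in clone 1 and -0.19 in clone 2, against 0.037 and -0.013 for all genes. None of these differences has a replicate check.

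The pentose phosphate pathway draws glucose 6-phosphate away from glycolysis to make NADPH and ribose. All 7 genes of the list passed the filter, and 0 were called in any pair of libraries, where 2.02%, 2.06% and 4.19% of all genes were called, so that a count of 0 does not set the list apart. In the control library, clone 1 and clone 2, RPIA, which isomerises ribose 5-phosphate, was at 17.9, 14.2 and 14.2 FPKM, and the transketolase TKT at 47.7, 49.98 and 47.4 FPKM.

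Of the pyruvate dehydrogenase kinases, PDK3 made up the largest share of FPKM, at 51.2%, 44.5% and 47.0% in control cells, clone 1 and clone 2, and PDK1 between 26.3% and 32.9%. Of the HIF prolyl hydroxylases, EGLN1 made up between 62.2% and 67.4%.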
